A study of Homo sapiens with 6 samples.

Results

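The neutrophil-attracting CXC chemokines are the 6 secreted proteins encoded by CXCL8, CXCL1, CXCL2, CXCL3, CXCL5 and CXCL6, neighbouring genes on chromosome 4 whose products bind the receptor CXCR2. They were taken by gene symbol from a table of 19475 symbols, all 6 were present, and all 6 were among the 13794 genes with enough counts to test. RNA was measured in MH7A cells, an immortalised synovial fibroblast line derived from a joint with rheumatoid arthritis, which stands for 1 line in culture and not for joint tissue. Cells received TNFα at 10 ng/ml together with red light from a 630 nm LED given for 15 min, 3 times (n = 3, LED replicates 4, 6 and 10), or TNFα at 10 ng/ml alone (n = 3, TNF replicates 2, 8 and 14). Every library therefore carries TNFα, and the comparison asks how the chemokine transcripts differed with light in cells that also received TNFα.

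CXC chemokines of this kind carry a glutamate, leucine and arginine motif before the first cysteines and draw neutrophils along a gradient. Neutrophils read them through CXCR1 and CXCR2, and CXCL8 and CXCL6 are the members that bind CXCR1 well. In stromal cells TNFα and IL1 switch the genes on through NF-kB, and the mRNAs are short-lived because their tails hold AU-rich elements that recruit decay factors. Synovial fibroblasts are a recognised source of CXCL8 in the arthritic joint, where neutrophils gather in the fluid.

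All 6 genes lie within 359 kb, in the order CXCL8, CXCL6, CXCL1, CXCL5, CXCL3, CXCL2, with the platelet chemokine genes PF4V1, PF4 and PPBP between them (GENCODE release 29, GRCh38). The first 3 are transcribed from the plus strand and the last 3 from the minus strand. The letters GGAATTTCC, a binding motif of NF-kB, stood once in the 250 bases before the RefSeq start of each of the 6 genes, always on the gene's own strand. The same letters, searched on both strands, were found in 0.428% of 27305 promoters of that length, although the members' promoters are partly copies of each other and the motif was chosen after these sequences had been read. The 40 bases around it are shown 5′ to 3′ on the gene's strand because they set the members into their families, with the motif in capitals (RefSeq, GRCh38.p14).
CXCL8, chr4:73740463-73740502, plus strand: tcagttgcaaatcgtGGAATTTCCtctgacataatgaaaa
CXCL1, chr4:73869300-73869339, plus strand: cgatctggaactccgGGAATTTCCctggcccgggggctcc
CXCL2, chr4:74099248-74099287, minus strand: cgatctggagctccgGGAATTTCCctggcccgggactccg
CXCL3, chr4:74038743-74038782, minus strand: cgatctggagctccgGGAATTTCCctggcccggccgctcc
CXCL5, chr4:73998743-73998782, minus strand: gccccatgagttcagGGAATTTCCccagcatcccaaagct
CXCL6, chr4:73836574-73836613, plus strand: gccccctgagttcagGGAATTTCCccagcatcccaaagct

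With the motifs placed over each other, CXCL5 and CXCL6 had the same base at 39 of the 40 positions, and CXCL1, CXCL2 and CXCL3 at 34 to 37 in each pair. CXCL8 matched the other members at 16 to 19 positions. The motif itself, shared by the choice of window, supplies 9 of these positions in every pair. Its promoter alone held a match to TGANTCA, a binding motif of the AP-1 factors FOS and JUN, which occurs in 6.60% of promoters. The 100 bases that hold both motifs of CXCL8 are shown because AP-1 and NF-kB are among the known inputs of this promoter. The AP-1 match stands first and the NF-kB match second, in capitals, and sites of other factors are not marked.
CXCL8, chr4:73740409-73740508, plus strand: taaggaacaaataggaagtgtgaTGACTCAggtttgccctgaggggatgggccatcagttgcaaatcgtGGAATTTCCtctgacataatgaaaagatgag

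The heat shock element, alternating inverted copies of GAA, was in none of the 6 windows and in 0.439% of all promoters. A GC box, GGGCGG, was found before CXCL1, CXCL3 and CXCL6 and in 42.3% of promoters, and the letters TATAAA before CXCL8 and in 11.1%. All were searched on both strands, and no match overlapped a match of another motif.

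**Figure D1:**
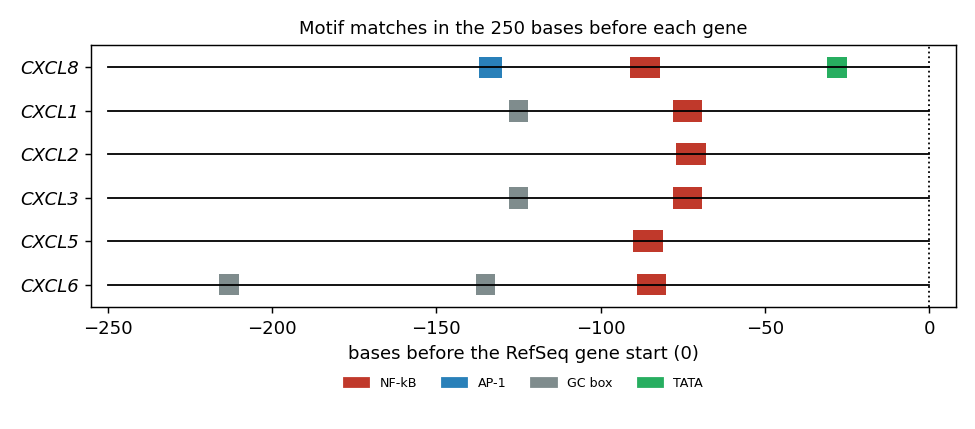
Matches of 4 motifs in the 250 bases before the RefSeq start of each gene, with the distance from the start in bases on the x axis. The NF-kB match begins 77 to 91 bases before the start in all 6 genes, and the AP-1 match, 137 bases before it, appears in CXCL8 alone.

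The mRNA tails of the members were dense in the pentamer ATTTA, the core of the AU-rich elements. CXCL2 had 10 copies in a 3′ untranslated region of 721 bases, or 13.9 per kb, and 0.356% of 17986 genes were at least as dense. CXCL3 had 10.4 per kb, CXCL8 7.19, CXCL1 7.08, CXCL5 5.51 and CXCL6 5.36, against a median of 1.60 per kb over all genes. The members thus lie between the densest 0.356% and the densest 7.83% of genes.

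Deposited totals were 94615430 to 108074289 estimated counts in the LED libraries and 86000253 to 107139947 in the TNF libraries, and about 4 of these units were taken as 1 sequenced fragment because low values piled up at 4 and 5. In each group 1 library, LED replicate 6 and TNF replicate 8, differed most from its partners. Over all genes, chi-square per degree of freedom was 76.9 and 115 between LED replicate 6 and its partners against 27.9 between the other pair, and 136 and 101 between TNF replicate 8 and its partners against 28.0 between the other pair. Of 11 synovial fibroblast markers 10 were expressed, and PRG4, the lubricin of the lining layer, was at or under the detection floor of 3 fragments in every library. The 11 summed to 25817 to 27448 CPM (counts scaled to each library's effective total) with LED and 30298 to 32306 CPM with TNFα alone. The most abundant of them, COL1A1, averaged 9810 CPM with LED and 13123 CPM with TNFα alone. The median log2 fold change of the 10 tested markers was -0.07, and none of the 10 passed the test across all genes. The neutrophil genes CSF3R, FCGR3B and MPO were at 0 in all 6 libraries, and 9 leukocyte markers summed to 114 to 154 CPM with LED and 92.9 to 138 CPM with TNFα alone, nearly all of it CD68. The 4 endothelial markers summed to 58.6 to 76.8 CPM with LED and 78.1 to 112 CPM with TNFα alone, nearly all of it TEK, while CDH5 was at 0 in all libraries and PECAM1 in 5 of 6. The part of these marker differences in the chemokine values was not tested. In bulk RNA, fewer expressing cells and less RNA per cell cannot be told apart.

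CXCL8, the strongest neutrophil attractant of the group, was the most abundant member by far and the 1 member whose transcript fell by the test across all genes. It had 531, 747 and 915 CPM in LED replicates 4, 6 and 10, against 2429, 1765 and 2811 CPM in TNF replicates 2, 8 and 14. The groups did not overlap, with LED replicate 10 the highest LED library and TNF replicate 8 the lowest TNF library. The log2 fold change was -1.68 ± 0.26 (SE, n = 3 each), 3.20-fold lower with LED, with an adjusted p of 0.0122 by edgeR's quasi-likelihood test. Lower calls made up 2.73% of all tested genes and calls in either direction 5.17%, and the share of 1 in 6 members called lower rests on CXCL8 alone. Without LED replicate 4 or LED replicate 6 the call was lost, with adjusted p = 0.0527 and 0.0738 and log2 fold changes of -1.48 and -1.69. In the TNF libraries 25 of 13794 genes had a higher mean CPM than CXCL8, a count not corrected for gene length. A more negative log2 fold change was found for 75 genes.

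**Figure D2:**
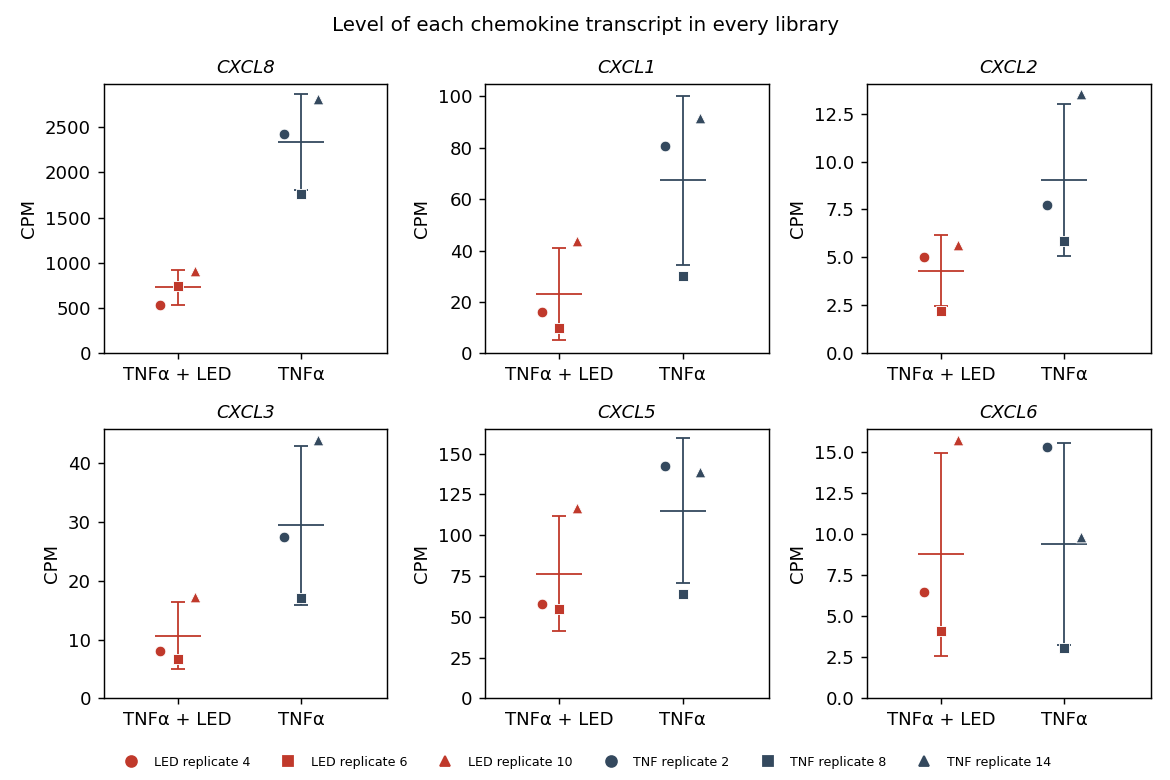
CPM of each chemokine transcript in every library, with the TNFα plus LED libraries left and the TNFα libraries right; horizontal bars are means, whiskers SD, n = 3 each. For CXCL8 the LED libraries sit between 531 and 915 CPM, below all TNF libraries, whereas LED replicate 10 lies above TNF replicate 8 for CXCL1, CXCL3, CXCL5 and CXCL6.

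CXCL1, CXCL2 and CXCL3, the growth-related (GRO) chemokines, were lower on average with LED but did not pass the test. CXCL1, or GRO alpha, had 16.0, 9.74 and 43.6 CPM in LED replicates 4, 6 and 10, against 80.6, 29.9 and 91.5 CPM in TNF replicates 2, 8 and 14. LED replicate 10 stood above TNF replicate 8, so the groups overlapped. Its log2 fold change was -1.54 ± 0.56 (SE, n = 3 each; edgeR adjusted p = 0.137), close to that of CXCL8 with a larger error. Without LED replicate 10 CXCL1 passed, at -2.39 (edgeR adjusted p = 0.0447).

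CXCL3, or GRO gamma, had 8.09, 6.76 and 17.1 CPM in the same LED libraries, against 27.4, 17.0 and 43.8 CPM in the TNF libraries. The groups overlapped by the narrow margin between LED replicate 10 and TNF replicate 8. The log2 fold change was -1.46 ± 0.42 (edgeR adjusted p = 0.0758, n = 3 each). CXCL3 passed with DESeq2 (adjusted p = 0.00356) and without LED replicate 10 (-1.99, edgeR adjusted p = 0.0431).

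CXCL2, or GRO beta, had 5.04, 2.19 and 5.66 CPM with LED, against 7.74, 5.87 and 13.5 CPM with TNFα alone. Here the groups did not overlap, as for CXCL8, but LED replicate 10 and TNF replicate 8 nearly met. The log2 fold change was -1.07 ± 0.40 (edgeR adjusted p = 0.151, n = 3 each). Groups that did not overlap in the lower direction were found for 16.2% of all tested genes, against 2 of the 6 members. Its counts rest on about 55 to 292 fragments per library.

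CXCL5 and CXCL6 showed the smallest average differences. Their promoters were 85.3% identical over 250 bases, and a link between promoter and response was not tested. CXCL5, also called ENA-78, had 57.9, 54.8 and 117 CPM in LED replicates 4, 6 and 10, against 142, 64.0 and 139 CPM in TNF replicates 2, 8 and 14. LED replicate 10 was closer to the upper TNF libraries than to its own group, and TNF replicate 8 closer to the lower LED libraries. The log2 fold change was -0.59 ± 0.37 (edgeR adjusted p = 0.384, n = 3 each).

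CXCL6, also called GCP-2, had 6.46, 4.10 and 15.8 CPM with LED, against 15.3, 3.07 and 9.85 CPM with TNFα alone. The highest value of all was in an LED library and the lowest in a TNF library. Its log2 fold change was -0.10 ± 0.59 (edgeR adjusted p = 0.937, n = 3 each), and its sign turned when LED replicate 4 (0.08), LED replicate 6 (0.24) or TNF replicate 2 (0.43) was left out.

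**Figure D3:**
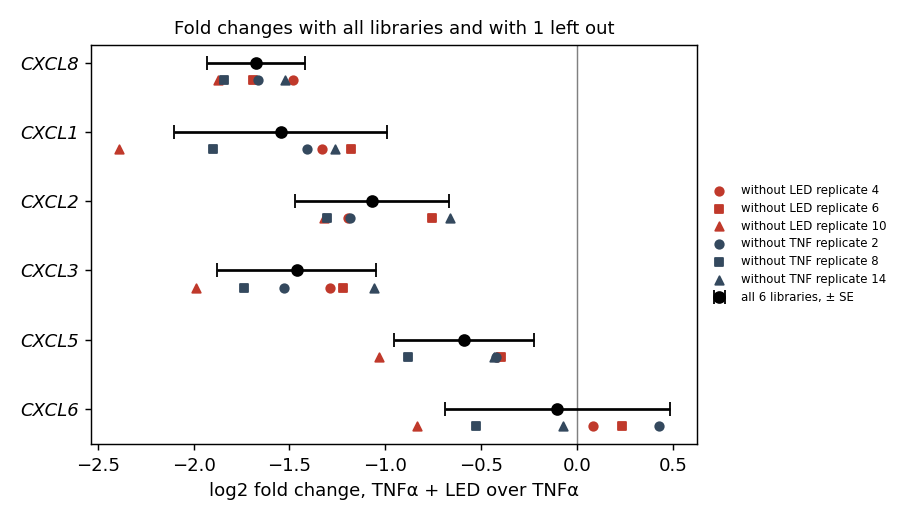
Log2 fold change of each member, TNFα plus LED over TNFα, with all 6 libraries (black, ± SE) and with each library left out in turn (coloured). CXCL8 stays between -1.87 and -1.48, CXCL1 moves between -2.39 and -1.18, and CXCL6 crosses 0.

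Over the family, 6 of 6 log2 fold changes were negative and their median was -1.27, beside a median of 0.01 over all tested genes, of which 49.2% were negative. A lower level with an unadjusted p under 0.05 was found for 4 members, CXCL8, CXCL1, CXCL2 and CXCL3, and for 11.8% of all tested genes. Summed over the members, the level was 624, 825 and 1114 CPM in LED replicates 4, 6 and 10, against 2703, 1885 and 3109 CPM in TNF replicates 2, 8 and 14. CXCL8 supplied 85.0%, 90.6% and 82.1% of that sum with LED and 89.9%, 93.6% and 90.4% with TNFα alone. The sum of the other 5 members was 93.4, 77.6 and 199 CPM with LED and 273, 120 and 298 CPM with TNFα alone, with overlapping groups.

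Per kilobase of exon, the scale on which genes can be ranked against each other, CXCL8 stood at 365 ± 96.1 CPM per kb with LED and 1166 ± 264 CPM per kb with TNFα alone (SD, n = 3 each). In LED libraries it was followed by CXCL5 (30.1 ± 13.8), CXCL1 (21.1 ± 16.4), CXCL3 (9.92 ± 5.26), CXCL6 (4.77 ± 3.36) and CXCL2 (3.53 ± 1.52 CPM per kb). The order with TNFα alone was CXCL1 (61.4 ± 30.0), CXCL5 (45.3 ± 17.4), CXCL3 (27.3 ± 12.6), CXCL2 (7.42 ± 3.26) and CXCL6 (5.13 ± 3.34 CPM per kb). Below CXCL8, the libraries of neighbours in these orders overlapped, with the exception of CXCL3 and CXCL2 with TNFα alone. Within single libraries CXCL5 stood above CXCL1 per kilobase in 3 of 3 LED libraries, and CXCL1 above CXCL5 in 3 of 3 TNF libraries, a pair picked out after its values were seen and not tested. CXCL6 stood above CXCL2 in 2 of 3 LED libraries and in 1 of 3 TNF libraries.

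Whether the other members moved less than CXCL8 was tested on the log2 ratio of CXCL8 to each of them within a library, in 5 exact two-sided permutation tests whose smallest possible p is 0.1. The ratio to CXCL5 averaged 3.31 with LED and 4.40 with TNFα alone, with groups that did not overlap (exact permutation p = 0.1, adjusted over the 5 pairs 0.5). That to CXCL6 averaged 6.55 with LED and 8.19 with TNFα alone, with overlapping groups (exact permutation p = 0.2, adjusted 0.5). The ratios to CXCL1, CXCL2 and CXCL3 changed by -0.02, -0.61 and -0.21, with exact permutation p of 1.0, 0.4 and 0.8. With that smallest p none of the 5 tests could pass a threshold of 0.05, so they show neither that CXCL8 differed from these members in response nor that it responded like them, and ratios between the other members were not tested.

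Within each group the members tended to be high and low in the same libraries. LED replicate 10 had the highest level of the LED libraries and TNF replicate 8 the lowest of the TNF libraries for 6 of 6 members. Genes outside the family such as EREG, COL3A1 and DPP4 had the same pattern, whereas CSF2 and ICAM1 did not. Its share over all tested genes was not counted, so it is not shown to be a trait of the family. The lowest LED library was replicate 6 for CXCL1, CXCL2, CXCL3, CXCL5 and CXCL6, and replicate 4 for CXCL8. Members were compared by the root mean square difference of their log2 CPM, each centred on its mean over the 6 libraries. The difference between the groups is therefore part of this measure, beside the variation within them. CXCL1 and CXCL3 were the closest pair at 0.34, followed by CXCL2 and CXCL3 at 0.37 and CXCL8 and CXCL3 at 0.39, while CXCL8 and CXCL6 were farthest apart at 1.08. CXCL5 and CXCL6 differed by 0.49. In a list of 27 heat shock genes 25 were called higher with LED and 2 were not called, beside 336 called higher of all 13794 tested genes. The list summed to 42591, 60540 and 31090 CPM in LED replicates 4, 6 and 10. In TNF replicates 2, 8 and 14 it summed to 10324, 10045 and 10122 CPM. LED replicate 10 was thus the LED library with the lowest heat shock level and the highest level of each chemokine. LED replicate 6, with the highest heat shock level, was the lowest LED library for the members other than CXCL8, which was lowest in LED replicate 4. The part of the heat shock response in the result was not tested.

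**Figure D4:**
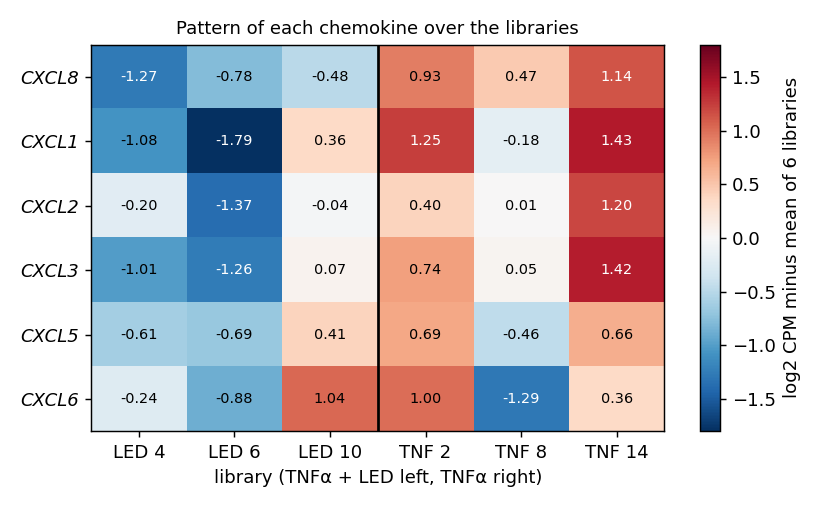
Log2 CPM of each member minus its mean over the 6 libraries, LED libraries left and TNF libraries right of the black line. For CXCL8 the LED libraries lie between -1.27 and -0.48 and the TNF libraries between 0.47 and 1.14, while CXCL6 is at 1.04 in LED replicate 10 and -1.29 in TNF replicate 8.

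Sequence similarity could blur the counts of the GRO genes. The coding sequences of CXCL1, CXCL2 and CXCL3 were 90.8% to 94.4% identical in pairs and those of CXCL5 and CXCL6 87.5%, whereas CXCL8 was 52.2% to 55.9% identical to the others. The longest run shared exactly by 2 members was 97 bases, between CXCL2 and CXCL3, and CXCL1 shared runs of 77 bases with CXCL2 and 55 bases with CXCL3. No stretch of 100 bases was shared. Reads that lie within those runs cannot be assigned to 1 gene, so the split of counts among CXCL1, CXCL2 and CXCL3 is uncertain, while that of CXCL8, whose longest shared run was 18 bases, is little affected.

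The receptors of these chemokines were not expressed in the cells. CXCR1, CXCR2 and the decoy receptor ACKR1 were at 0 in 6 of 6 libraries, where 3 fragments would amount to 0.108 to 0.138 CPM.

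Among the other CXC chemokine genes listed, the platelet chemokine PPBP and the B cell chemokine CXCL13 were at 0 in every library. PF4V1 was at or under the floor throughout, and PF4 stayed under 0.5 CPM. CXCL10 and CXCL11, the interferon-inducible ligands of CXCR3 that lie farther along the chromosome, were lower on average without passing the test. CXCL10 had 93.8, 159 and 185 CPM in LED replicates 4, 6 and 10, against 214, 203 and 652 CPM in TNF replicates 2, 8 and 14 (log2 fold change -1.29 ± 0.45, edgeR adjusted p = 0.13). CXCL11 had 30.7, 32.0 and 66.1 CPM with LED, against 57.4, 68.4 and 214 CPM with TNFα alone (-1.40 ± 0.50, edgeR adjusted p = 0.136). Both were highest in TNF replicate 14, without which their log2 fold changes shrank to -0.51 and -0.55. CXCL9, the third CXCR3 ligand, stayed under 1 CPM.

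Of the 9 non-chemokine genes listed beside the cluster 6 were tested, and none passed. MTHFD2L, EREG, PARM1 and AFP were higher on average with LED, and AREG and BTC were lower, like the members. MTHFD2L, a mitochondrial folate enzyme next to CXCL2, had 6.96, 8.10 and 6.13 CPM with LED, against 5.10, 3.82 and 4.86 CPM with TNFα alone (log2 fold change 0.62 ± 0.22, edgeR adjusted p = 0.133). The epidermal growth factor receptor ligands EREG and AREG had log2 fold changes of 0.29 ± 0.34 and -0.45 ± 0.26, and their groups overlapped. PARM1 had a log2 fold change of 0.61 ± 0.38, AFP 0.38 ± 0.42 and BTC -0.37 ± 1.09, all at or below 2 CPM, and RASSF6, EPGN and AFM were too low to test. The median log2 fold change of the 6 tested flanking genes was 0.34.

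**Figure D5:**
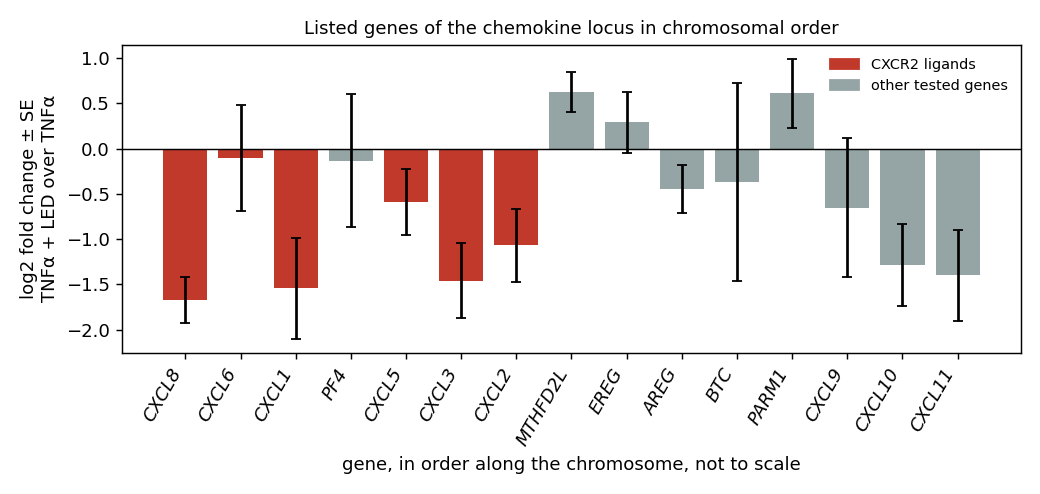
Log2 fold change ± SE of the members and of the tested genes listed for this locus from CXCL8 onward, in chromosomal order with other genes between PARM1 and CXCL11 left out, TNFα plus LED over TNFα, with the CXCR2 ligands in red. The bars of the 6 members point down, from -0.10 for CXCL6 to -1.68 for CXCL8. Those of MTHFD2L, EREG and PARM1 point up, and those of PF4, AREG, BTC, CXCL9, CXCL10 and CXCL11 point down.

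In the route from the TNF receptor to NF-kB, 1 of 28 tested genes fell, 1 rose and 26 did not pass, with a median log2 fold change of -0.10. Over all 13794 tested genes 377, or 2.73%, were called lower and 336 higher, so 1 call each way in 28 is near those shares. NFKB2, which encodes the p100 precursor of a subunit, had 110, 101 and 119 CPM in LED replicates 4, 6 and 10, against 155, 218 and 184 CPM in TNF replicates 2, 8 and 14 (-0.75 ± 0.18, edgeR adjusted p = 0.0469). BCL3, a nuclear cofactor of the factor, had 46.1, 27.4 and 47.8 CPM with LED, against 21.4, 21.9 and 18.7 CPM with TNFα alone (0.97 ± 0.23, edgeR adjusted p = 0.0459). Each of these 2 calls was lost in 5 of the 6 omissions of 1 library, with adjusted p up to 0.168 for NFKB2, which kept it without TNF replicate 2, and 0.151 for BCL3, which kept it without LED replicate 6. BCL3 also lost its call with limma-voom (0.055) and with scaling by library totals (0.0699).

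None of 16 other transcription factors described at such promoters passed, with a median of 0.62, where 5.17% of all tested genes passed in either direction. Some of them varied widely within a group. ATF3 had 43.4 CPM in LED replicate 6 against 5.98 and 2.67 CPM in LED replicates 4 and 10. CEBPB varied widely in both groups, with 282, 8.18 and 281 CPM in LED replicates 4, 6 and 10 and 186, 8.45 and 6.67 CPM in TNF replicates 2, 8 and 14. EGR1, an immediate early factor, had the lowest p, with 82.9, 61.2 and 9.67 CPM in LED replicates 4, 6 and 10, against 12.9, 8.63 and 7.26 CPM in TNF replicates 2, 8 and 14 (log2 fold change 2.41 ± 0.62, edgeR adjusted p = 0.0569). FOSB, an AP-1 subunit, had 2.51, 11.1 and 1.47 CPM with LED, against 0.64, 1.03 and 0.99 CPM with TNFα alone (edgeR adjusted p = 0.0654). LED replicate 10 had the lowest EGR1 and FOSB of the LED libraries.

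Factors that set the life of AU-rich mRNAs did not pass either, with 24 of 24 not called and a median of -0.01. Calls in either direction made up 5.17% of all tested genes. HNRNPD, the decay factor AUF1, had 147, 144 and 154 CPM with LED, against 192, 233 and 196 CPM with TNFα alone (-0.48 ± 0.16, edgeR adjusted p = 0.118). MAP2K6, a kinase that activates p38, was at 1.67, 0.36 and 2.15 CPM with LED, against 0.29, 0 and 0.23 CPM with TNFα alone (edgeR adjusted p = 0.13).

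Of 21 tested genes tied to the binding, presentation or cleavage of chemokines, 1 had a lower transcript level and 20 did not pass, with a median of -0.16. With 2.73% of all tested genes called lower, 1 in 21 is near that share. MMP14, a membrane-bound collagenase, had 867, 974 and 1075 CPM in LED replicates 4, 6 and 10, against 1517, 2279 and 1850 CPM in TNF replicates 2, 8 and 14. Its groups did not overlap (-0.95 ± 0.20, edgeR adjusted p = 0.0332), and the call held in 1 of 6 omissions, that of TNF replicate 2, with adjusted p up to 0.143 in the others.

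Among 13 tested genes whose products also recruit, hold or sustain neutrophils, 3 had lower transcript levels and 10 did not pass, with a median of -0.52. The share called lower over all tested genes was 2.73%. The growth factor CSF2 had 11.3, 12.2 and 12.6 CPM in LED replicates 4, 6 and 10, against 34.0, 95.3 and 57.8 CPM in TNF replicates 2, 8 and 14 (-2.37 ± 0.33, edgeR adjusted p = 0.00926). Unlike the chemokines, it was highest in TNF replicate 8. ICAM1, the endothelial and stromal ligand of neutrophil integrins, had 216, 233 and 235 CPM with LED, against 370, 620 and 559 CPM with TNFα alone (-1.18 ± 0.21, edgeR adjusted p = 0.0222). IL1B, a cytokine that itself induces these chemokines, had 18.8, 17.0 and 32.8 CPM with LED, against 53.0, 59.6 and 98.9 CPM with TNFα alone (-1.62 ± 0.32, edgeR adjusted p = 0.0281). The CSF2 call was lost when LED replicate 6 was omitted (0.0762). That of ICAM1 was lost on omitting LED replicate 4, 6 or 10 or TNF replicate 14, with adjusted p up to 0.102. For IL1B the omissions that ended the call were LED replicates 4 and 6 and TNF replicate 14, with adjusted p up to 0.131, and it was 0.172 with LED replicate 6 and TNF replicate 8 both omitted.

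The genes most like CXCL8 over the 6 libraries, among 8982 with a mean of at least 10 CPM, were found by the same root mean square difference of centred log2 CPM, whose median over these genes was 0.92. They were the amino acid transporter SLC7A2 (0.19), FAM105A (0.20), CEMIP (0.23), the urokinase PLAU (0.30) and the immune ligand PDCD1LG2 (0.31). SLC7A2 had 96.8, 107 and 199 CPM in LED replicates 4, 6 and 10, against 475, 342 and 571 CPM in TNF replicates 2, 8 and 14. It shared with CXCL8 its lowest value in LED replicate 4 and its highest in TNF replicate 14.

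The median profile of the 6 members was closest to IL6, at 0.10. IL6, the main acute phase cytokine of the joint, had 53.0, 45.1 and 92.4 CPM in LED replicates 4, 6 and 10, against 152, 85.4 and 185 CPM in TNF replicates 2, 8 and 14. IL6 did not pass the test (log2 fold change -1.15 ± 0.34, edgeR adjusted p = 0.0822). Its order of libraries within each group was that of CXCL1, with LED replicate 10 above TNF replicate 8. PRKG1 (0.26), SEMA5A (0.29) and TMEM2 (0.30) held ranks 3 to 5, and the gene at rank 2 is not described here.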

How the data were processed

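The deposited table holds estimated counts per gene symbol as whole numbers, and the authors applied no scaling that the values show. Per the submitters' processing notes the tools were HISAT2 and StringTie, with bcl2fastq 2.0, DESeq2 and limma also listed and no roles given. The build they name is a mouse one, so the human build is not known here. Strandedness is not stated, so reads from an antisense neighbour cannot be told apart. Of 3417 values between 1 and 7, 67.2% were 4 or 5, so about 4 units were taken as 1 fragment, an inference on which all fragment numbers and floors rest. The libraries then hold about 21500063 to 27018572 fragments each, and floors of 3 fragments cover counting error only.

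TNFα plus LED was set against TNFα alone with edgeR 4.0.16 in R 4.3.3 (filterByExpr, TMM, robust quasi-likelihood test across all genes, two-sided, Benjamini-Hochberg over all genes tested, threshold 0.05). The SE is the log2 fold change over the root of F. CPM uses TMM-scaled library sizes, and profiles use log2(CPM + 0.1). Exon lengths, tails and gene order are from GENCODE release 29, the longest basic coding transcript being used for tails and identities, and promoters are from RefSeq. Identities are from global alignment (Biopython 1.88). Procedures were tested on simulated data.

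The members and lists were chosen with earlier results of these data known. Named genes were the members, the receptors and the other listed chemokine and flanking genes. Also named were list genes past the threshold, or else the 2 with the lowest p. The 5 most alike in pattern completed the set, and 1 of them is not described. Alternatives were other filters, scalings, DESeq2 1.42.0, limma-voom (limma 3.58.1), other dispersions, counts divided by 4, and libraries left out. No label says whether the samples were separate cultures, so the p-values rest on a spread that may be technical.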

Additional observations from a re-analysis of the deposited data

How the results depend on the processing

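Across 17 alternatives the sign of the CXCL8, CXCL1, CXCL2, CXCL3 and CXCL5 differences did not change, and CXCL8 kept its call in 15. With 1 library left out, log2 fold changes ran from -1.87 to -1.48 for CXCL8, -2.39 to -1.18 for CXCL1, -1.32 to -0.66 for CXCL2, -1.99 to -1.06 for CXCL3, -1.03 to -0.40 for CXCL5 and -0.84 to 0.43 for CXCL6. CXCL6 turned positive without LED replicate 4 (0.08), LED replicate 6 (0.24) or TNF replicate 2 (0.43). Between 0 and 3 members were called lower in these omissions, which leave 5 libraries. Over all genes 21 to 423 were called lower and 59 to 314 higher in them, against 377 and 336 with all libraries. DESeq2 called 879 genes lower and 878 higher, and 2 members, CXCL8 and CXCL3 (-1.45). With TNF replicate 8 and LED replicate 6 both left out, 906 genes were called lower and 763 higher. The causes of these shifts were not tested. No scaling moved the median of all genes by over 0.1 on the log2 scale. No paired analysis was possible because the groups share no replicate number. Depth limits CXCL2 and CXCL6 most, at about 55 to 292 and 78 to 428 fragments per library.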
